A study of Mus musculus with 55 samples.

Results

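Rab GTPases are small GTP-binding proteins that act as switches on intracellular membranes. The family was taken here as every gene whose symbol is Rab followed by a number and, where present, a letter and a further digit, so that Rab-like genes and Rab regulators were left out. This rule uses names only and no measured value. It selected 59 of the 55421 genes in the count table, and their RNA was followed across 6 bone marrow populations of wildtype (WT) and Tet2-/- mice.

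All mice were on a C57BL/6 background. The Tet2-/- animals carried floxed Tet2 with Mx1-Cre, a Cre that interferon switches on and that is not restricted to blood cells. It was induced at 4 weeks of age by 5 intraperitoneal doses of 250 µg poly(I:C), and cells were taken 16 weeks after induction. Whether the WT animals received poly(I:C) is not given in the sources used here, so loss of Tet2 and exposure to poly(I:C) cannot be told apart. By the labels 200 cells per library, a number that differs in the study's methods, were sorted as long-term and short-term haematopoietic stem cells (LT-HSC and ST-HSC), common myeloid progenitors (CMP), granulocyte-macrophage progenitors (GMP), megakaryocyte-erythroid progenitors (MEP) and common lymphoid progenitors (CLP), and were sequenced by Smart-seq2, a full-length method that does not mark the strand. There were 4 libraries per population and genotype, numbered 2 to 5, except 3 for WT LT-HSC and 3 for WT ST-HSC, which gave 46 libraries. The study names mice as its replicates, whereas the labels give each library a number only, and the p-values measure the spread between these libraries.

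A Rab protein cycles between a GTP-bound form on a membrane and a GDP-bound form in the cytosol. Guanine nucleotide exchange factors (GEFs) load GTP and thereby activate it, GTPase-activating proteins (GAPs) switch it off, and prenylation and chaperone proteins attach it to membranes and retrieve it. In the active form it recruits effectors such as tethers and motor adaptors, which dock and move vesicles. Different members mark different compartments, from the Golgi and early endosomes to lysosomes and secretory granules, and in blood cells members of the family serve receptor recycling, granule release in neutrophils and mast cells, and the lysosome-related organelles of platelets. Members were grouped below by these roles: 16 of the endoplasmic reticulum (ER), Golgi and early secretory pathway, 11 of early endosomes and fast recycling, 10 of recycling endosomes and delivery to the plasma membrane, 9 of late endosomes and lysosome-related organelles, 9 of regulated secretion and granules, and 4 others.

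Promoter sequence is shown for 4 members on which the results below turn: Rab11a, Rab24 and Rab5a, whose RNA was lower in Tet2-/- myeloid progenitors, and Rab20, the member with the smallest p in the test among WT populations. Each window runs from 250 bases before to 50 bases after a RefSeq transcript start in GRCm38.p6, the build of the mm10 coordinates, and is written 5′ to 3′ on the gene's strand. Capitals mark exact matches to CCGGAAGT, the consensus of ETS family factors, and to the E-box CACGTG, each searched on both strands. Rab11a (chr9:64737707-64738006, minus strand) and Rab24 (chr13:55321931-55322230, minus strand) come first, then Rab5a (chr17:53478984-53479283, plus strand) and Rab20 (chr8:11478591-11478890, minus strand).
Rab11a: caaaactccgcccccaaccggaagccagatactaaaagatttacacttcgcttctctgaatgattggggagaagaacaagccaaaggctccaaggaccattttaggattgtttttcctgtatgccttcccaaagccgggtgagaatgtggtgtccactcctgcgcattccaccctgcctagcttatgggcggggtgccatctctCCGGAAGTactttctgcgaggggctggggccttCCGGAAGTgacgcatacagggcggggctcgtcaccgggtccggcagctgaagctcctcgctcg
Rab24: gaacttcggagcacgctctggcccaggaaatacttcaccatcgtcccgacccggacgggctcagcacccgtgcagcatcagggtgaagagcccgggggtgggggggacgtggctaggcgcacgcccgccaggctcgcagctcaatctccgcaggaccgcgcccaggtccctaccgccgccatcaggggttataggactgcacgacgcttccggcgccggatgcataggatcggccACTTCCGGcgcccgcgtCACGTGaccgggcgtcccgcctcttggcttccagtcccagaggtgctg
Rab5a: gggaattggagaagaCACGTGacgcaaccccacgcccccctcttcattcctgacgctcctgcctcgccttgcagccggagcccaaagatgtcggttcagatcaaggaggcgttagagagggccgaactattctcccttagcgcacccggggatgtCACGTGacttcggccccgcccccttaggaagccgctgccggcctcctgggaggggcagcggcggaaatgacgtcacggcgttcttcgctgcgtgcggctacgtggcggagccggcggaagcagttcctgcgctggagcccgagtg
Rab20: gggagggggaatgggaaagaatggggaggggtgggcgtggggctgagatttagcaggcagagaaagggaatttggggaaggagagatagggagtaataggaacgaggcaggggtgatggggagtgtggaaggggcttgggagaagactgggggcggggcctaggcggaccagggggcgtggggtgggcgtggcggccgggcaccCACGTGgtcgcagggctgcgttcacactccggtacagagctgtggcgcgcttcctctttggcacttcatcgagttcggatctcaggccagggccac

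The Rab11a window held CCGGAAGT at 2 places, and the Rab24 window held it once beside a CACGTG. Rab5a had CACGTG at 2 places and Rab20 at 1. Of the 59 members, 48 had a window, 60 windows in all. CCGGAAGT was present in 3.33% of the member windows and in 3.89% of all 32851 windows, and CACGTG in 10% and 7.15%. The erythroid motif GATAA was in 20% of member windows against 25.4% of all, and the PU.1 motif GAGGAAGT in 3.33% against 3.20%. Member windows were richer in CpG than promoters at large, with a median of 19.5 CpG per window against 7 and a GC content of 61.2% against 52.7%. A match is only a match of letters, and binding was not measured in these libraries.

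The 46 libraries held 50458473 to 102148079 counts and 13754 to 20964 genes with a count. Levels are given as CPM, counts scaled to the library total and by the trimmed mean of M-values (TMM), and a gene with 3 counts, the floor used here, stood at 0.0294 to 0.0595 CPM before that scaling. This floor covers counting error only. Some summed markers followed the labels of the sorted cells. In WT libraries, stem-cell markers reached 415 to 681 CPM in LT-HSC and 411 to 448 CPM in ST-HSC. Erythroid markers reached 1029 to 1624 CPM in WT MEP and neutrophil granule genes 31148 to 42028 CPM in WT GMP. Others did not: megakaryocyte and platelet markers summed to 21.8 to 186 CPM in WT MEP, against 544 to 848 CPM in WT CMP. Stem-cell markers also summed to 103 to 345 CPM in WT CLP, against 57.3 to 82.2 CPM in WT CMP. The CLP libraries stood apart. Their TMM factors, by which the library total is multiplied, were 0.516 to 0.713 in WT and 0.740 to 1.08 in Tet2-/-. In the other populations the factors were 0.946 to 1.19, so the scaling raised WT CLP levels relative to those of other populations. B cell markers summed to 145460 to 278595 CPM in WT CLP, whereas the Tet2-/- CLP libraries 2, 3, 4 and 5 held 807, 38298, 130769 and 129881 CPM, and the Tet2-/- CLP library 3 also carried 12069 CPM of neutrophil granule genes. Tet2 RNA counted over the whole gene was lower on average in the libraries labelled Tet2-/- in ST-HSC, CMP and MEP and higher in LT-HSC, GMP and CLP, with means of 20.7 ± 3.04 CPM in WT and 16.2 ± 8.21 CPM in Tet2-/- CMP (SD, n = 4 each) and 13.2 ± 1.77 and 23.9 ± 12.7 CPM in LT-HSC (n = 3 and 4). A count over the whole gene does not check the genotype labels. In sorted bulk samples, fewer cells that express a gene and less RNA per cell cannot be told apart.

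Most of the family was expressed. Summed over all members, Rab RNA made up 1965 ± 49.6 CPM in WT MEP, the lowest WT population, and 2599 ± 35.2 CPM in WT LT-HSC, the highest mean (SD, n = 4 and 3). The WT ST-HSC, GMP and CLP ranges overlapped with that of LT-HSC, and the GMP mean was 2596 ± 253 CPM (n = 4). Between 43 and 49 members exceeded 1 CPM on average in each group, and 19 to 29 exceeded 20 CPM. Per length of exons and averaged over all 46 libraries, Rab38, which acts with Rab32 in building lysosome-related organelles, was the highest at 129 CPM per kb, an average over groups that differed widely. Rab7, which drives fusion of late endosomes with lysosomes, followed at 87.2 CPM per kb, ahead of Rab1a of ER-to-Golgi transport at 48.1, Rab9 of late endosome-to-Golgi transport at 37.0 and Rab31, a Rab22 relative on endosomes, at 29.98 CPM per kb. By group, Rab38 had the highest mean per length in LT-HSC, ST-HSC and CMP of both genotypes, from 118 to 293 CPM per kb, and Rab7 in GMP, CLP and Tet2-/- MEP, from 80.8 to 110 CPM per kb. In WT MEP, Rab4a at 84.8 ± 11.65 and Rab7 at 81.4 ± 7.26 CPM per kb (SD, n = 4) differed by less than their spread. Rab3c, a Rab of synaptic vesicles, and Rab9b had no count in any library, and Rab15 reached at most 1.65 CPM, in 7 libraries with a count.

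**Figure D1:**
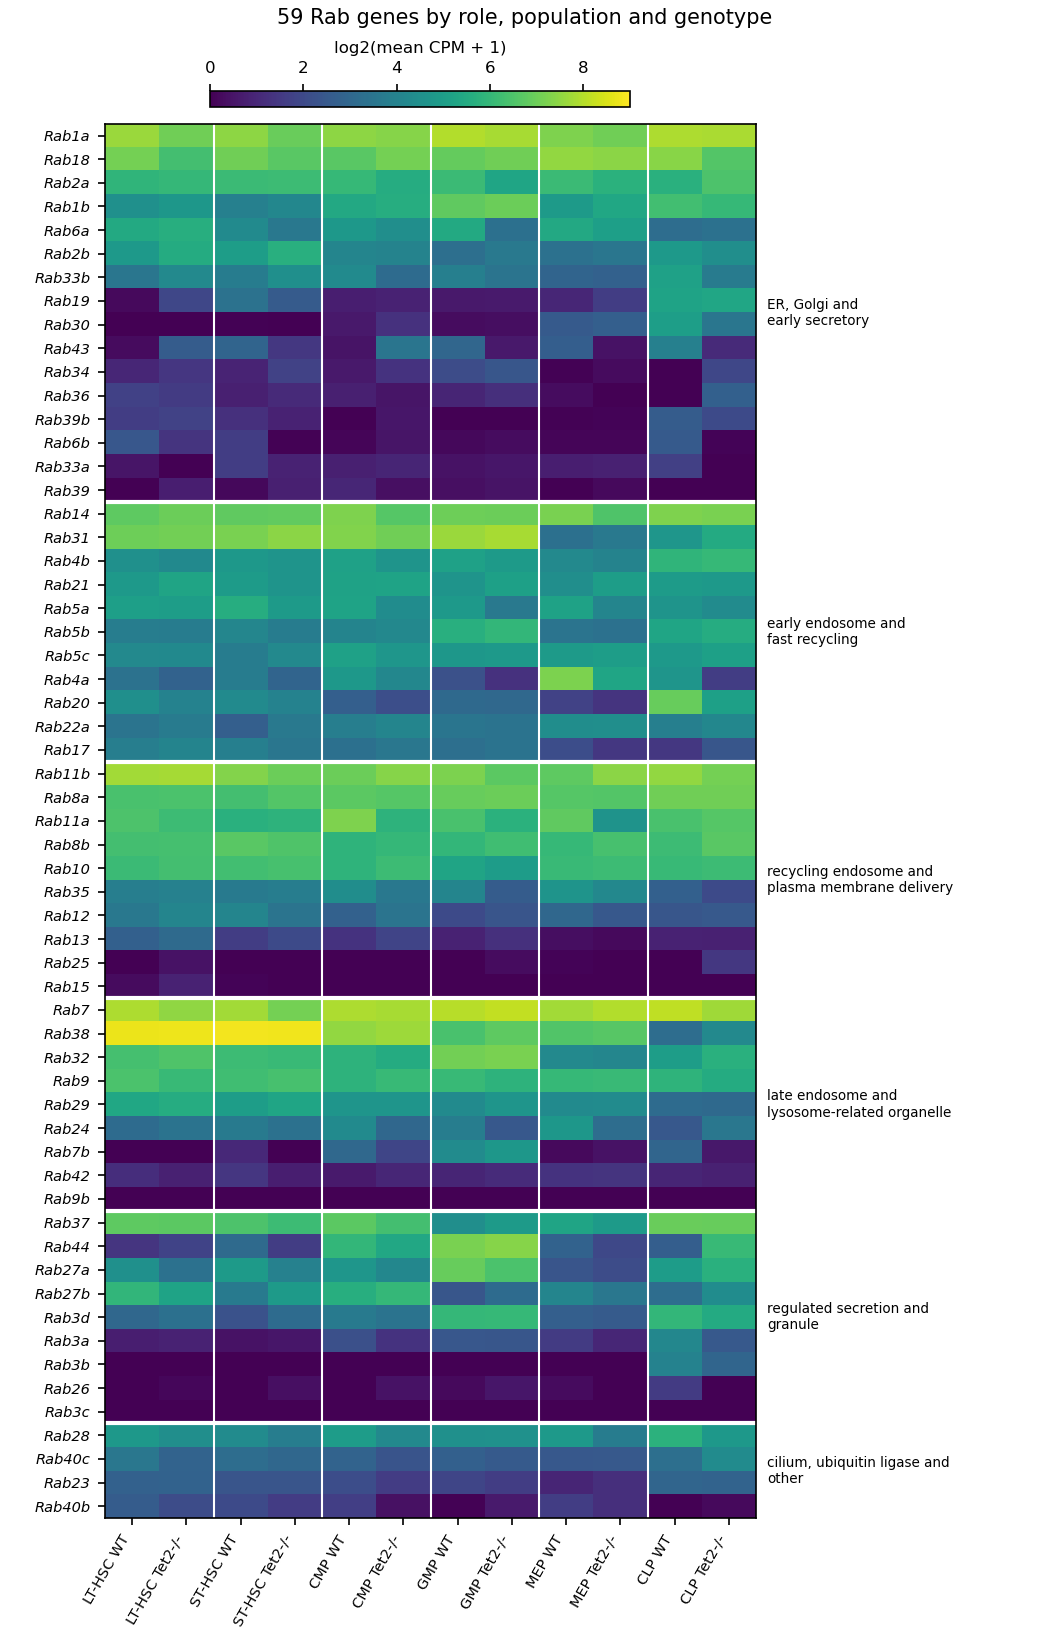
Mean level of each of the 59 members (rows, grouped by role) in each population and genotype (columns), as log2(mean CPM + 1) by colour from dark (0) to yellow. Rab38 is the brightest row in LT-HSC and ST-HSC and dim in CLP, Rab44 and Rab27a are brightest in the GMP columns, and Rab3c and Rab9b are at 0 throughout.

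Members that passed the genotype test did so in the myeloid progenitors, and all of them were lower in Tet2-/-. A member was called when the edgeR quasi-likelihood test gave a Benjamini-Hochberg adjusted p of at most 0.05 over all genes tested and the change was at least 2-fold. In CMP, 2 of 50 tested members were called lower in Tet2-/- (4%, against 3.92% of all genes tested called lower). In GMP it was 4 of 51 (7.84%, against 4.06%) and in MEP 4 of 48 (8.33%, against 4.21%), and within the 6 populations no member was called higher. Leaving out single libraries moved these counts to 1 to 3 in CMP, 3 to 7 in GMP and 2 to 5 in MEP. Over both directions, 4.57%, 4.37% and 4.36% of all tested genes were called in CMP, GMP and MEP. The CMP share is close to the background, and the few calls in GMP and MEP are not read as a result about the family either. At an unadjusted edgeR p under 0.05 were 15 of 50 members in CMP, 11 of 51 in GMP and 9 of 48 in MEP. The shares of all genes were 19.1%, 17.3% and 16.4%. No member was called in LT-HSC, ST-HSC or CLP, where 0.0245%, 0.0185% and 0.00766% of all genes were called by edgeR. An unadjusted p under 0.05 was reached there by 3 of 49, 3 of 49 and 1 of 45 members, against 5.16%, 6.13% and 3.65% of all genes. DESeq2 called 0, 0 and 1 (Rab36), against 0.963%, 1.33% and 2.01% of the genes it was given.

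DESeq2 called 3 of 54 members in CMP, 6 of 54 in GMP and 7 of 56 in MEP, against 4.77%, 3.93% and 3.98% of the genes it was given, and these included all those called by edgeR. A single fit over all 46 libraries, whose shared spread takes in the uneven CLP libraries, called 1 of 57 members in CMP, 0 in GMP and 1 in MEP, against 1.27%, 0.979% and 1.89% of all 22360 genes, and the member was Rab11a both times. It called none in LT-HSC and ST-HSC (0.0894% and 0.0939% of all genes) and 5 in CLP (6.61% of all genes): Rab34 and Rab36 higher, and Rab20, Rab33a and Rab4a lower. Rab34, Rab36 and Rab33a were scarce. Rab34 and Rab36 had a mean of 0 CPM in WT CLP, and Rab36 one of 5.72 CPM in Tet2-/- CLP. Rab33a had a mean of 2.26 CPM in WT CLP, and its highest library stood at 8.93 CPM. The median log2 fold change of members was −0.20 in CMP, 0.09 in GMP and −0.14 in MEP, beside 0.03, 0.03 and 0.05 for all genes tested. Members with no overlap between the WT and Tet2-/- libraries were lower in 10 cases and higher in 0 in CMP, where 9.24% of all genes were lower without overlap and 6.46% higher. They numbered 7 lower and 0 higher in GMP (8.1% and 4.93% of all genes) and 8 lower and 1 higher in MEP (8.59% and 4.36%).

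**Figure D2:**
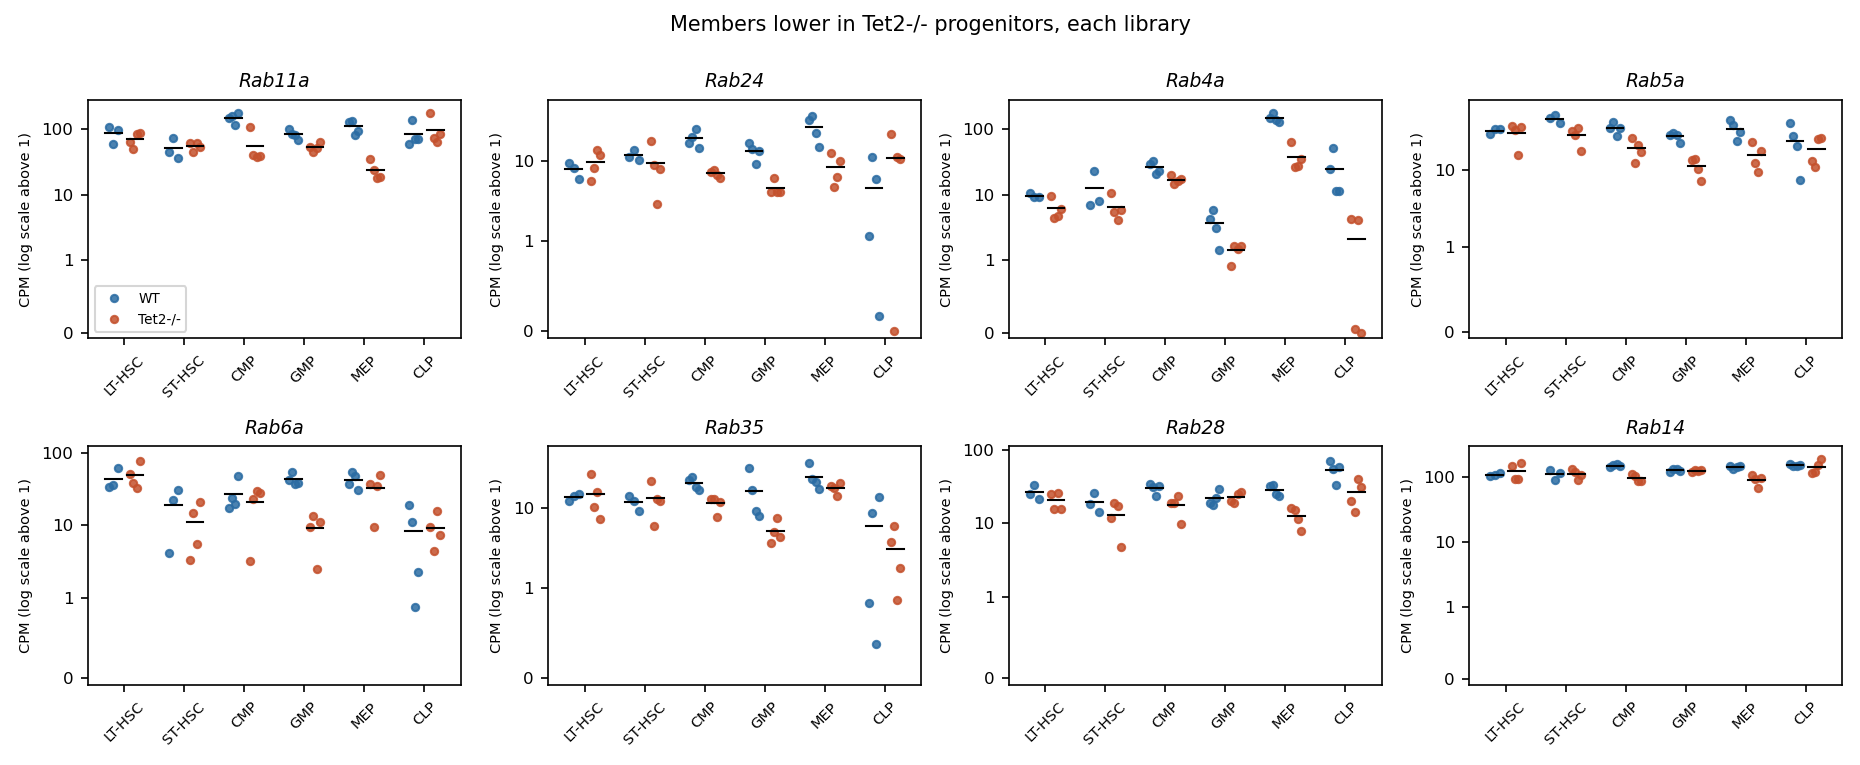
CPM of each library (points, blue WT and red Tet2-/-) by population for the 7 members called in a genotype comparison and for Rab14, with a line at each group's mean. The vertical axis is logarithmic above 1 CPM and linear below. Rab11a and Rab4a in MEP and Rab6a in GMP show Tet2-/- points well below all WT points, and the CLP points spread most.

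Rab11a, which returns internalised receptors from recycling endosomes to the cell surface, changed most clearly among the recycling members (chr9:64715299-64737758, minus strand, mm10). In MEP the WT libraries 2, 3, 4 and 5 stood at 131, 133, 82.3 and 94.5 CPM and the Tet2-/- libraries at 34.5, 23.7, 17.7 and 18.4 CPM. The highest Tet2-/- library lay far below the lowest WT library. Rab11a fell 4.70-fold in MEP, by 2.23 on the log2 scale (SE 0.26, adjusted p = 0.000975, edgeR). CMP showed 151, 160, 115 and 176 CPM in WT against 108, 40.4, 37.2 and 38.7 CPM in Tet2-/-. The groups did not overlap, but Tet2-/- library 2 stood close to WT and the other Tet2-/- libraries far below it. Rab11a fell 2.73-fold in CMP (adjusted p = 0.0361). That call was lost without the low-count filter (adjusted p = 0.0653) and on leaving out any CMP library other than Tet2-/- library 2, with adjusted p up to 0.111, and without Tet2-/- library 2 the decrease was 1.96 on the log2 scale (adjusted p = 0.000315).

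GMP had a smaller difference in Rab11a, with 101, 85.6, 82.7 and 67.6 CPM in WT and 52.6, 45.3, 51 and 64.1 CPM in Tet2-/-. Here Rab11a fell by 0.70 on the log2 scale (SE 0.15, adjusted p = 0.0163), short of 2-fold. In LT-HSC the WT libraries held 107, 59.7 and 98.6 CPM and the Tet2-/- libraries 64.2, 50.2, 85.5 and 86 CPM, and in ST-HSC the values were 45.2, 73.5 and 35.9 against 62.2, 45.3, 60.6 and 52.5 CPM. Both pairs of stem-cell groups overlapped. CLP overlapped too, at 60.4, 137, 70.2 and 69.8 CPM in WT and 175, 73.6, 63.6 and 83.1 CPM in Tet2-/-. The genotype effect on Rab11a differed among the 6 populations (interaction F-test of edgeR, adjusted p = 0.0029). In this fit it was the only member for which the interaction was called, against 2.65% of all 22360 genes tested. DESeq2 called 2 members, with 1388 of 33994 genes called. Without the CLP libraries it was also 2, and leaving out single libraries gave 1 to 3.

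The closest relative, Rab11b, was not called in any population. In MEP it stood at 71.7, 103, 82.7 and 176 CPM in WT and at 167, 248, 105 and 176 CPM in Tet2-/-, and the groups overlapped. In GMP it stood at 123, 178, 127 and 161 CPM in WT and at 98.5, 70.5, 172 and 76.7 CPM in Tet2-/-, with overlap and a log2 fold change of −0.53 (adjusted p = 0.344) beside −0.70 for Rab11a. Per exon length, Rab11a supplied 67.7% ± 11.4 of Rab11 RNA in WT MEP and 22.3% ± 6.42 in Tet2-/- MEP (SD, n = 4 each), and 71.4% ± 3.51 against 39.7% ± 16.7 in CMP. In GMP, with 53.9% and 52.3%, the share was nearly level. A gene model on the same strand, Gm47308, shares 107 exonic bases with Rab11a and was lower too, at 11.03 ± 1.68 CPM in WT and 0.705 ± 1.35 CPM in Tet2-/- MEP (n = 4 each), so reads in the shared stretch could be counted with either gene.

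Rab35, which also recycles cargo from endosomes to the plasma membrane, was called in GMP. Its WT libraries spread widely, at 30.6, 16.3, 9.11 and 7.89 CPM, and the Tet2-/- libraries held 3.68, 4.91, 7.36 and 4.35 CPM. The highest Tet2-/- value lay just under the lowest WT value. Rab35 fell 3.20-fold (SE 0.42 on the log2 scale, adjusted p = 0.036), a call lost without WT GMP library 2 or 3 or Tet2-/- GMP library 2, 3 or 5 (adjusted p 0.086 to 0.104), and without the low-count filter (adjusted p = 0.0598).

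Among the early endosome members, Rab4a, which sends receptors straight back from early endosomes to the surface, was the main change in MEP. The WT MEP libraries held 148, 178, 141 and 130 CPM and the Tet2-/- libraries 63.9, 26.3, 27.8 and 34.7 CPM. All 4 Tet2-/- libraries were far below all 4 WT libraries. Rab4a fell 3.92-fold (log2 −1.97, SE 0.29, adjusted p = 0.00315). CMP showed 29.7, 32.8, 20.9 and 22.8 CPM in WT against 20, 14.7, 16.5 and 17.3 CPM in Tet2-/-, without overlap but short of the threshold (log2 −0.65, adjusted p = 0.0867). In GMP, where Rab4a was scarce, WT libraries held 4.32, 5.9, 3.12 and 1.43 CPM and Tet2-/- libraries 0.914, 1.65, 1.48 and 1.65 CPM, and the groups overlapped (adjusted p = 0.105 by edgeR, whereas DESeq2 made the call at log2 −1.42 and an adjusted p of 0.021).

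Rab5a, which drives fusion of early endosomes, was called in GMP (chr17:53479234-53507680, plus strand, mm10). GMP libraries held 29.3, 31.2, 29.4 and 22.9 CPM in WT and 13.8, 14.2, 10.5 and 7.26 CPM in Tet2-/-. The groups were far apart, and Rab5a fell 2.52-fold (log2 −1.33, SE 0.23, adjusted p = 0.00472). In MEP, WT libraries held 45.2, 39.2, 24.3 and 31.8 CPM and Tet2-/- libraries 23.4, 12.5, 9.59 and 18.2 CPM. These groups did not overlap either, but the edgeR test missed the threshold at adjusted p = 0.0749, whereas DESeq2 (adjusted p = 0.00765) and the fit without Tet2-/- MEP library 2 (adjusted p = 0.0296) made the call. CMP gave a similar picture, with 36.2, 43, 28.6 and 35.7 CPM in WT, 26.8, 12.5, 21.4 and 17.5 CPM in Tet2-/- and an adjusted p of 0.058, or 0.0337 and a call without Tet2-/- CMP library 2. In ST-HSC, values of 48.6, 52.5 and 41.6 CPM in WT stood above 32.6, 29.4, 36.1 and 17.9 CPM in Tet2-/- (adjusted p = 0.768). The partly overlapping gene Pp2d1 did not exceed 1.32 CPM in GMP.

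Rab14, which moves cargo between the trans-Golgi and endosomes, had tight groups and a change of less than 2-fold. In CMP it stood at 143, 154, 159 and 147 CPM in WT and at 110, 105, 87.8 and 85.7 CPM in Tet2-/-. It fell by 0.65 on the log2 scale (SE 0.11, adjusted p = 0.00859). MEP gave 147, 131, 145 and 151 CPM against 107, 92.4, 67.2 and 95.9 CPM, a decrease of 0.67 (SE 0.15, adjusted p = 0.0309). GMP showed none of this, with 121, 131, 135 and 124 CPM in WT and 121, 128, 123 and 131 CPM in Tet2-/-. Rab21, a Rab of integrin endocytosis, was the 1 member with higher, non-overlapping values in Tet2-/- MEP, at 31.7, 26.4, 32.7 and 33.5 CPM against 24.7, 21.3, 19 and 18.4 CPM in WT (log2 0.57, adjusted p = 0.093).

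Rab24, placed with the late endosome members and known for its part in autophagy, was the only member called by edgeR within all 3 myeloid progenitor populations (chr13:55319743-55321946, minus strand, mm10). In CMP the WT libraries held 16.4, 19.7, 24.8 and 14.4 CPM and the Tet2-/- libraries 7.29, 7.7, 6.69 and 6.08 CPM. In GMP they held 16.5, 13.9, 9.04 and 13.2 CPM against 4.12, 6.08, 4.11 and 4.12 CPM. In MEP they held 31.6, 35.4, 22 and 14.6 CPM against 12.4, 4.66, 6.21 and 9.95 CPM. No population had an overlap between the genotypes. Rab24 fell 2.74-fold in CMP (SE 0.23 on the log2 scale, adjusted p = 0.00441), 2.90-fold in GMP (SE 0.25, adjusted p = 0.00262) and 3.11-fold in MEP (SE 0.38, adjusted p = 0.0363).

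The MEP call of Rab24 was lost without the low-count filter (adjusted p = 0.0601) and without WT MEP library 2, 3 or 4 or Tet2-/- MEP library 3, 4 or 5, with adjusted p up to 0.108. Rab24 shares 1258 of its 2015 exonic bases with Prelid1 on the other strand, and reads in the shared stretch cannot be told apart. Prelid1 stood at 229 ± 42.4 CPM in WT and 258 ± 19.8 CPM in Tet2-/- GMP (SD, n = 4 each), with overlapping groups in CMP, GMP and MEP. In LT-HSC the Rab24 means were 7.82 ± 1.81 CPM in WT and 9.73 ± 3.55 CPM in Tet2-/- (n = 3 and 4), and in ST-HSC 11.6 ± 1.7 and 9.35 ± 6.11 CPM. CLP means were 4.55 CPM in WT and 10.8 CPM in Tet2-/-, higher by 1.21 on the log2 scale (SE 1.90) and not called. The other abundant late endosome members, Rab7, Rab9, Rab32 and Rab38, were not called by genotype in any population.

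In the Golgi group, Rab6a, which carries vesicles within and back through the Golgi, was called in GMP (chr7:100607410-100641268, plus strand, mm10). The WT GMP libraries held 41.2, 54.2, 37.5 and 38.3 CPM and the Tet2-/- libraries 9.33, 13.3, 2.46 and 11.1 CPM. The highest Tet2-/- library lay far below the lowest WT library. Rab6a fell 4.84-fold (log2 −2.28, SE 0.40, adjusted p = 0.00525). Mrpl48, which shares 708 exonic bases with it, stood at 55.3 ± 5.58 CPM in WT and 64.6 ± 11.6 CPM in Tet2-/- GMP (n = 4 each), with overlap. Rab2a, a Rab of the ER-Golgi intermediate compartment, held 96.4, 66.2, 62.7 and 50.7 CPM in WT GMP and 41.9, 40.7, 37.8 and 33.3 CPM in Tet2-/- GMP, a decrease of 0.88 on the log2 scale that stayed under 2-fold (SE 0.19, adjusted p = 0.017) but reached it, and was called, without WT GMP library 5 (log2 −1.004, adjusted p = 0.00686). Rab1a in GMP, at 255, 267, 234 and 234 CPM in WT and 214, 220, 229 and 232 CPM in Tet2-/-, was without overlap by a narrow margin and missed the threshold (log2 −0.18, adjusted p = 0.353).

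Rab28, a Rab of cilia and photoreceptors, was called in MEP, with 31.8, 32.8, 24.9 and 23.6 CPM in WT and 16.3, 15, 11.4 and 7.99 CPM in Tet2-/-. It fell 2.25-fold (SE 0.24 on the log2 scale, adjusted p = 0.0225). The call was lost without WT MEP library 2 or 3 or Tet2-/- MEP library 4 (adjusted p 0.0652 to 0.0717). None of the regulated secretion and granule members was called by edgeR in any genotype comparison. An unadjusted p under 0.05 was reached by 1 of 6 tested in LT-HSC, 2 of 6 in CMP, 1 of 7 in GMP and 1 of 6 in MEP, against 5.16%, 19.1%, 17.3% and 16.4% of all genes. DESeq2 called Rab26 and Rab44, 2 of the 7 members it called in MEP among 56 given, where it called 3.98% of all genes. Rab26 (log2 −6.29, adjusted p = 0.0414 by DESeq2) was not tested by edgeR there and had a mean of 0 CPM in Tet2-/- MEP. Rab44 held 7.5, 4.66, 5.36 and 6.85 CPM in WT MEP and 4.11, 3.19, 1.77 and 2.49 CPM in Tet2-/- MEP, without overlap and with an adjusted p of 0.13 by edgeR.

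**Figure D3:**
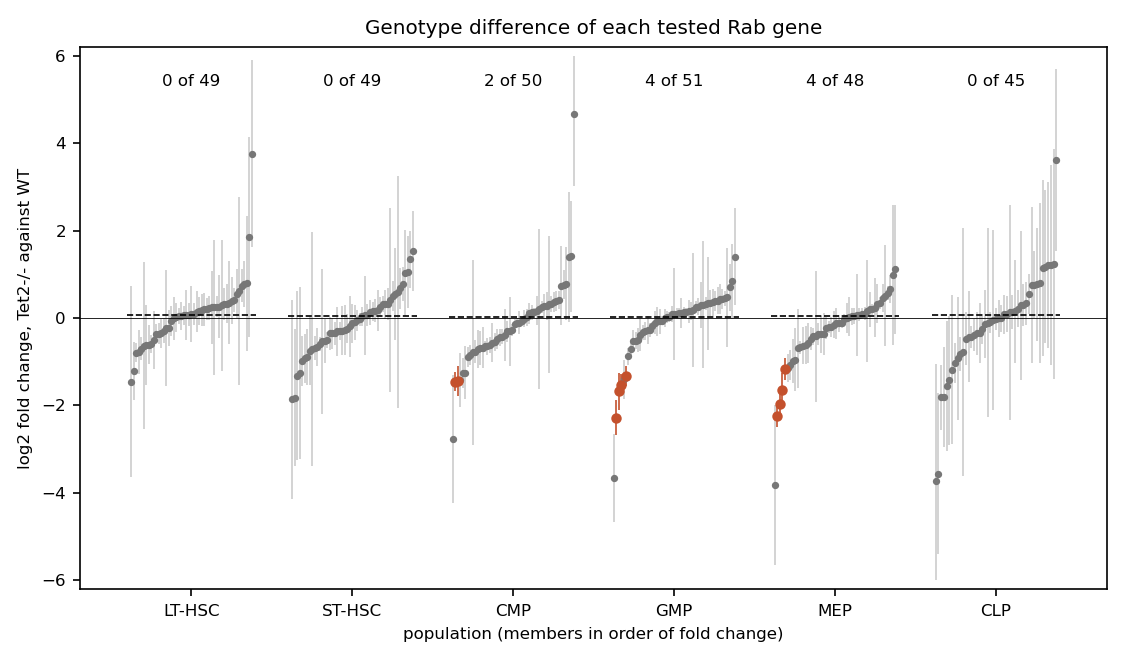
Fitted log2 fold change (vertical axis, Tet2-/- against WT) of each tested member, in order of its value within each population, with bars of 1 SE cut at the axis limits. Called members are red, the dashed line is the median of all genes tested, and the numbers give called of tested members. All called members lie below 0, in CMP, GMP and MEP, while members with wide bars at either end were not called.

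The stem-cell and CLP comparisons were less precise. The median SE of a member's log2 fold change was 0.44 in LT-HSC, 0.47 in ST-HSC and 1.04 in CLP, against 0.26 in CMP, 0.25 in GMP and 0.32 in MEP. With 4 against 3 libraries, an exact two-sided permutation test cannot go below p = 0.0571. Members without overlap were 6 lower and 1 higher in LT-HSC (3.71% and 3.23% of all genes), 3 and 1 in ST-HSC (4.42% and 3.59%), and 2 and 0 in CLP (1.94% each way).

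In LT-HSC, Rab18, an ER and lipid droplet Rab, held 119, 171 and 123 CPM in WT and 88.7, 83.7, 64.7 and 73.9 CPM in Tet2-/- (log2 −0.80, adjusted p = 0.606). Rab27b, which serves platelet dense granule release, held 66.6, 53 and 58.6 CPM against 34.9, 30.4, 29.3 and 49.3 CPM (adjusted p = 0.842). Megakaryocyte and platelet markers summed to 439 to 500 CPM in these WT libraries and to 183 to 458 CPM in the Tet2-/- ones (7 markers, none at 0), with overlapping ranges, and their part in the Rab27b values was not tested. Rab1a showed 205, 188 and 210 CPM against 153, 140, 133 and 97.5 CPM (adjusted p = 0.743). Rab18, Rab27b and Rab1a had WT libraries above all Tet2-/- libraries, and none passed the test. Rab21 went the other way, with 32.6, 24.7 and 28.3 CPM in WT and 34.2, 33.0, 33.9 and 48.1 CPM in Tet2-/- (log2 0.41, adjusted p = 0.998). ST-HSC gave the like for Rab7, at 201, 228 and 214 CPM in WT and 151, 119, 132 and 153 CPM in Tet2-/- (log2 −0.60, adjusted p = 0.413), and for Rab1a, at 138, 201 and 193 CPM against 118, 119, 135 and 117 CPM (log2 −0.51, adjusted p = 0.608). In CLP, Rab20, an endosome and phagosome Rab of macrophages, held 159, 115, 118 and 83.4 CPM in WT and 81.4, 4.91, 13.3 and 36.6 CPM in Tet2-/- (log2 −1.82, SE 0.74, adjusted p = 1), a difference that was −2.71 without Tet2-/- CLP library 2 (adjusted p = 0.429). Rab4a, the other member without overlap there, held 25.2, 52.6, 11.3 and 11.4 CPM in WT CLP and 4.21, 0.0521, 4.16 and 0 CPM in Tet2-/- CLP (log2 −3.56, SE 1.85, adjusted p = 1). Both were called lower in the fit of all 46 libraries, Rab4a with an adjusted p of 0.00528 and Rab20 with 0.0451. Megakaryocyte and platelet markers summed to 0.156, 1508, 0.554 and 414 CPM in the Tet2-/- CLP libraries 2, 3, 4 and 5 and to at most 8.37 CPM in WT CLP (7 markers, 0 and 4 at 0), and monocyte and macrophage markers to 78.2 to 683 CPM and 36.9 to 756 CPM (6 markers, 1 and 1 at 0). B cell markers were lower in Tet2-/- CLP, at 807 to 130769 CPM against 145460 to 278595 CPM in WT CLP, without overlap. The part of these markers in the CLP results was not tested.

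Other measures moved with genotype in the same libraries. Summed erythroid markers were 84.9 to 261 CPM in WT CMP and 299 to 457 CPM in Tet2-/- CMP, over all 7 markers of the list and with none at 0. Mast cell, basophil and eosinophil markers were 146 to 190 CPM in WT and 256 to 536 CPM in Tet2-/- CMP (8 markers, 2 and 1 of them at 0), and B cell markers 163 to 232 CPM against 102 to 123 CPM (7 markers, 0 and 2 at 0). In GMP, stem-cell markers were 13.35 to 17.96 CPM in WT and 21.08 to 24.75 CPM in Tet2-/- (8 markers, 1 at 0 in WT). These 4 pairs of ranges did not overlap. Nor did B cell markers in CLP, at 145460 to 278595 CPM in WT and 807 to 130769 CPM in Tet2-/- (7 markers, 2 and 0 at 0). In MEP the erythroid sum was 1029 to 1624 CPM against 960 to 1095 CPM, and no marker list was without overlap. Neutrophil granule genes in GMP spanned 31148 to 42028 CPM in WT and 35332 to 44188 CPM in Tet2-/-, and the ranges overlapped. The part of these cell markers in the Rab results was not tested.

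Base composition also moved with the calls. Genes called lower in Tet2-/- had a median GC content over the first 200 transcript bases of 70%, 72% and 70.5% in CMP, GMP and MEP, against 60%, 59.5% and 60% for all tested genes. Among the called members, Rab24 had 74%, Rab35 73.5%, Rab6a 71%, Rab28 70.5%, Rab4a 69.5%, Rab11a 67.5% and Rab5a 64.5%. After a correction for this GC content, chosen after seeing the data, 1 member was called in CMP (Rab24), 3 in GMP (Rab24, Rab6a and Rab5a, all lower) and 3 in MEP (Rab11a and Rab4a lower, Rab21 higher at log2 1.01), against 4.19%, 4.04% and 3.94% of all genes in that fit. The corrected fit no longer called Rab11a in CMP (log2 −1.17, adjusted p = 0.0728), Rab35 in GMP (log2 −1.30, adjusted p = 0.0703), or Rab28 (log2 −0.77, adjusted p = 0.0933) and Rab24 (log2 −1.23, adjusted p = 0.0677) in MEP.

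Levels were also compared between populations, within each genotype. In an F-test over the 6 WT populations, 25 of 55 tested members were called (45.5%, against 42.8% of all genes), and in Tet2-/- likewise 25 of 55 (against 38.9% of all genes). The shares lie near the background. Both genotypes called 16 members, 64% of each list: Rab1b, Rab3d, Rab4a, Rab4b, Rab5b, Rab7b, Rab10, Rab11a, Rab19, Rab20, Rab27a, Rab30, Rab31, Rab37, Rab38 and Rab44. By role in WT, the call was made for 8 of 8 tested secretion and granule members, 6 of 11 early endosome members, 5 of 16 ER and Golgi members, 2 of 8 recycling members, 2 of 8 late endosome members and 2 of 4 others. These counts are descriptions, since a member that entered the test through 1 population had to differ: Rab3b had counts in CLP alone, and Rab26 reached 7.73 CPM in 1 WT CLP library and a mean of at most 0.188 CPM in the other WT populations. Without the CLP libraries the F-test called 31 of 54 members in WT and 29 of 55 in Tet2-/-, against 43.5% of all genes in each genotype. Rab19 was then no longer called in WT (adjusted p = 0.073).

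**Figure D4:**
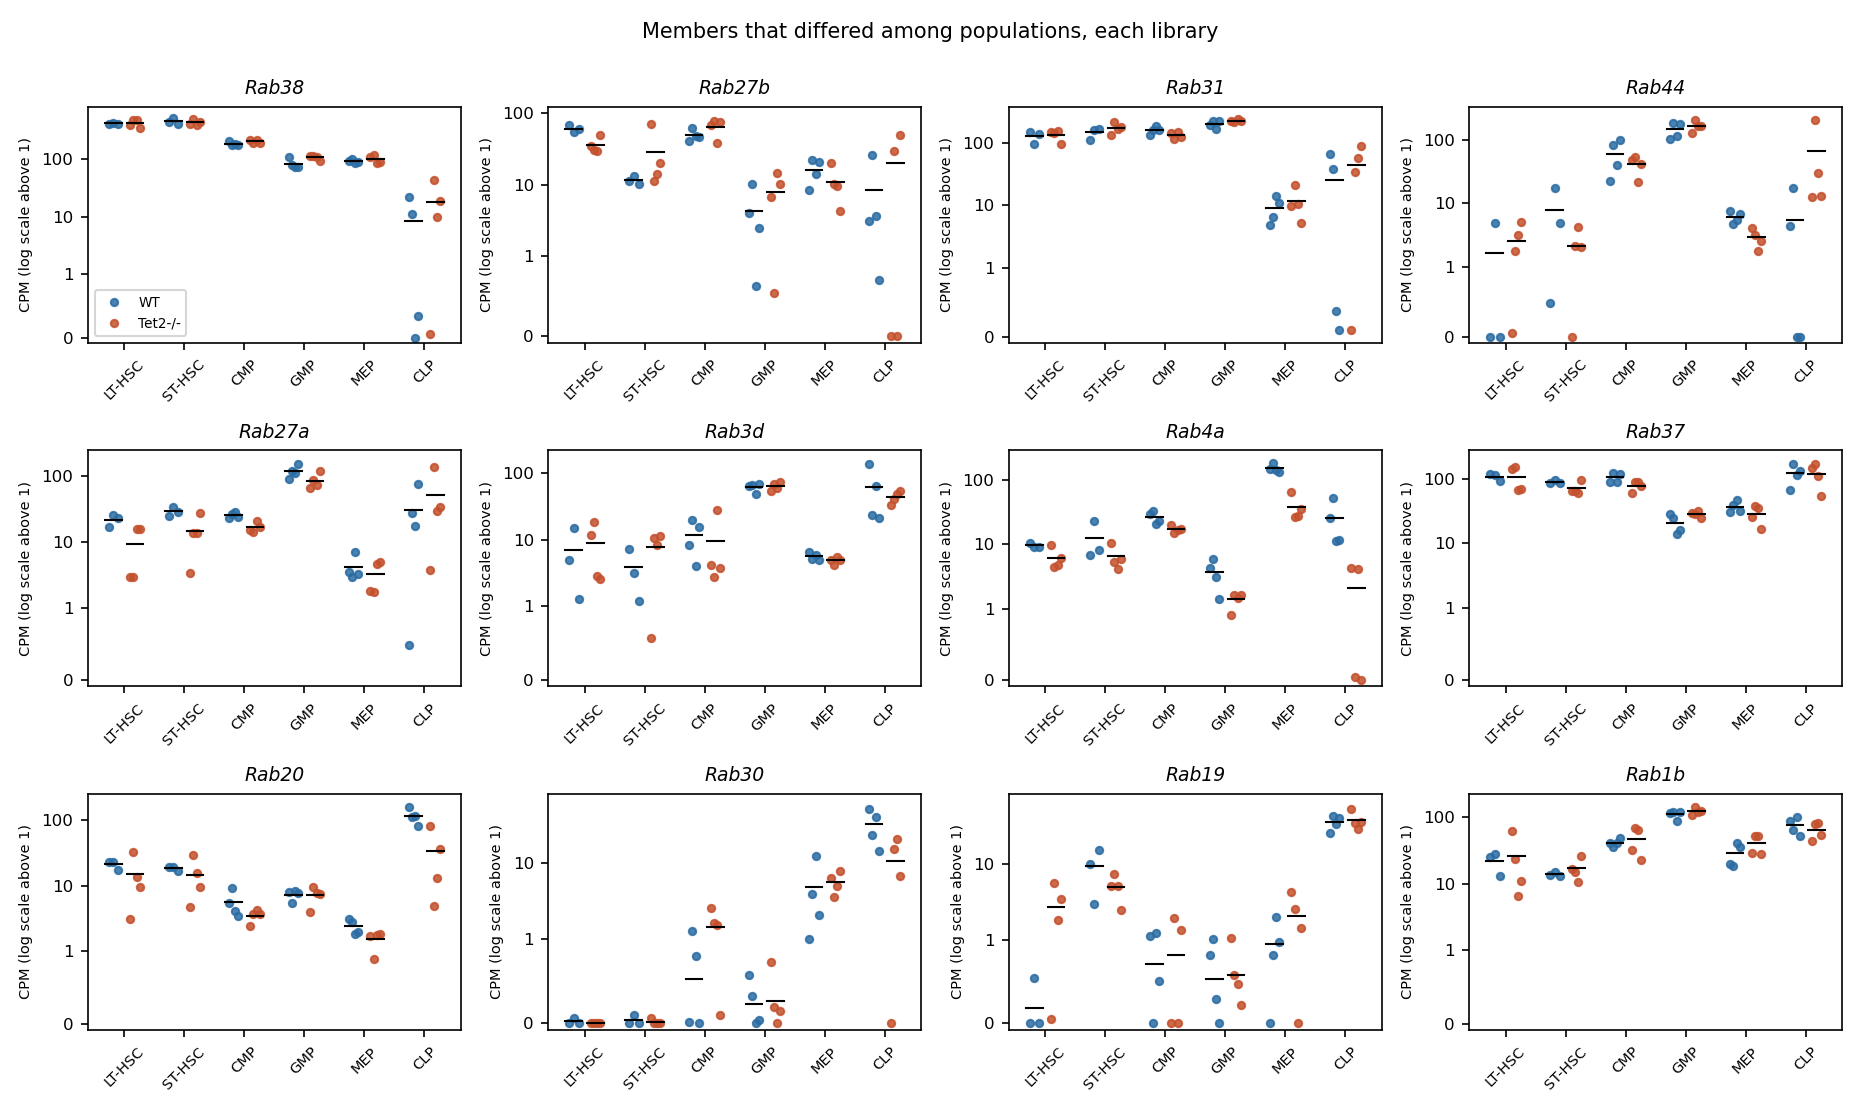
CPM of each library (points, blue WT and red Tet2-/-) for 12 members that differed among the WT populations, with a line at each group's mean and an axis that is logarithmic above 1 CPM and linear below. Rab38 is highest in LT-HSC and ST-HSC, Rab44 and Rab27a in GMP, Rab4a in MEP and Rab20 in CLP.

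Rab38 was highest in the stem-cell populations. The WT LT-HSC libraries held 415, 438 and 415 CPM and the WT ST-HSC libraries 448, 517 and 420 CPM. WT CMP libraries stood at 205, 176, 185 and 179 CPM, and the means in GMP and MEP were 83.8 ± 16.2 and 93.2 ± 6.18 CPM (SD, n = 4 each). In WT CLP the values were 21.7, 11.3, 0 and 0.342 CPM. The levels thus lay in steps, with LT-HSC and ST-HSC overlapping, then CMP, then GMP and MEP overlapping, then CLP. Against the mean of the other 5 populations, Rab38 was higher in LT-HSC (log2 2.24, SE 0.63, adjusted p = 0.0184) and ST-HSC (log2 2.41, SE 0.62, adjusted p = 0.0115) and lower in CLP (log2 −4.56, SE 0.92, adjusted p = 0.000656). In Tet2-/- the LT-HSC mean was 432 ± 66.8 CPM, and the same contrast gave 1.92 (adjusted p = 0.0102). The WT calls were lost in LT-HSC without any 1 of its 3 libraries (adjusted p 0.0617 to 0.0679) and in ST-HSC without library 3 (adjusted p = 0.0506). In LT-HSC, 5 of 55 members were called in each genotype (12.8% of all genes in WT and 12.2% in Tet2-/-), and Rab38 was the 1 shared.

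Rab27b, which acts in platelet dense granule release, was uneven among the WT populations. The LT-HSC mean was 59.4 ± 6.81 CPM and the CMP mean 48.8 ± 9.43 CPM, whereas ST-HSC held 11.6 ± 1.46 CPM and GMP 4.33 ± 4.12 CPM. Megakaryocyte and platelet markers (7, with 1 at 0 in ST-HSC) summed to 439 to 500 CPM in WT LT-HSC and 544 to 848 CPM in WT CMP, against 48.2 to 71.9 CPM in ST-HSC and 22.9 to 64.2 CPM in GMP, and their part in the Rab27b levels was not tested. It was called higher in WT LT-HSC (log2 2.21, SE 0.58, adjusted p = 0.0119) and CMP (log2 1.89, SE 0.54, adjusted p = 0.046) and lower in GMP (log2 −2.26, SE 0.72, adjusted p = 0.0267). Tet2-/- means were 36.0 CPM in LT-HSC, 28.7 in ST-HSC and 63.5 in CMP, and none of these contrasts was called in Tet2-/-. The WT CMP call was lost with RLE scaling, without the low-count filter and on leaving out any 1 WT CMP library or most others (adjusted p 0.0532 to 0.138 over all fits that lost it). The LT-HSC call was lost without WT LT-HSC library 2 and the GMP call without WT GMP library 2, 4 or 5.

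Of the 8 tested secretion and granule members, 3 were called higher in WT GMP (Rab44, Rab27a and Rab3d) and 2 lower (Rab27b and Rab37), where 17.1% of all genes were called. Rab44, a large Rab with a role in mast cell granule release, held 103, 184, 114 and 180 CPM in WT GMP, 60.5 ± 35.3 CPM in CMP and 6.09 ± 1.31 CPM in MEP. It was higher in GMP by 4.28 on the log2 scale (SE 0.97, adjusted p = 0.00313), and in Tet2-/- by 4.36 (SE 0.65, adjusted p = 7.18e-05). Rab27a, which docks secretory granules and lytic granules at the plasma membrane, held 91.8, 122, 112 and 156 CPM in WT GMP. Its means elsewhere in WT ran from 4.18 CPM in MEP to 30.7 CPM in CLP, and the GMP contrast was 2.75 (SE 0.47, adjusted p = 0.000254). Rab3d, a Rab of exocrine and mast cell granules, stood at 62.2 ± 8.95 CPM in WT GMP and between 3.86 and 11.8 CPM in the other myeloid and stem-cell populations (GMP contrast 2.64, SE 0.46, adjusted p = 0.000276). WT CLP also held Rab3d, at 61.9 ± 54.3 CPM, with 1 library at 138 and 2 at 21.4 and 23.7 CPM.

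Rab1b of ER-to-Golgi transport and Rab5b of early endosomes were higher in GMP as well. Rab1b stood at 112 ± 15.6 CPM in WT GMP against 13.99 to 41.8 CPM in LT-HSC, ST-HSC, CMP and MEP and 77.4 ± 22.4 CPM in CLP (contrast 1.88, SE 0.20, adjusted p = 9.83e-07). Rab5b stood at 50.5 ± 14.8 CPM in WT GMP and 38.0 ± 16.9 CPM in WT CLP (contrast for GMP 1.64, SE 0.22, adjusted p = 2.02e-05). Both members were also called higher in WT CLP (contrasts 1.19 and 1.08, adjusted p = 0.00012 and 0.000898). Rab37, another mast cell granule Rab, went the other way from Rab44, with 20.7 ± 6.61 CPM in WT GMP against 107 CPM in LT-HSC, 104 CPM in CMP and 121 CPM in CLP (contrast −1.99, SE 0.24, adjusted p = 4.6e-06). Rab4a was lower in GMP too (contrast −2.78, SE 0.46, adjusted p = 0.000169). GMP had 10 called members in WT (18.2%, against 17.1% of all genes) and 12 in Tet2-/- (21.8%, against 14.6%). The 8 shared, all in the same direction, were Rab1b, Rab3d, Rab4a, Rab5b, Rab7b, Rab27a, Rab37 and Rab44, which is 80% of the WT list and 66.7% of the Tet2-/- list. The Tet2-/- call of Rab4a was lost without the low-count filter and on leaving out most single libraries (adjusted p 0.0507 to 0.129 over the fits that lost it).

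Of 11 tested early endosome members, 1 was called higher in WT MEP (Rab4a) and 3 lower (Rab31, Rab20 and Rab5b), and of the 8 secretion and granule members 2 were lower (Rab27a and Rab37), where 15.7% of all genes were called. Rab4a was higher in WT MEP than in the other 5 populations by 3.53 on the log2 scale (SE 0.31, adjusted p = 1.06e-07), and in Tet2-/- MEP, in spite of the decrease with genotype, by 3.03 (SE 0.62, adjusted p = 0.00104). Rab31 held 9.04 ± 4.18 CPM in WT MEP and 127 to 199 CPM on average in LT-HSC, ST-HSC, CMP and GMP, but it was low in WT CLP too, at 64.9, 37.2, 0.377 and 0.107 CPM (contrast for MEP −3.62, SE 0.98, adjusted p = 0.0102). Rab27a was lower by 3.14 on the log2 scale (SE 0.69, adjusted p = 0.00212). Rab20 had its lowest mean there, 2.45 ± 0.636 CPM (contrast −2.92, SE 0.28, adjusted p = 3.27e-07). Rab30, a Golgi Rab, was higher in MEP (contrast 3.46, SE 0.86, adjusted p = 0.00593), from a mean of 4.82 CPM that was far under its CLP mean, a call lost without WT MEP library 4 (adjusted p = 0.0755). MEP had 8 called members in WT (14.5%, against 15.7% of all genes) and 12 in Tet2-/- (21.8%, against 14.7%), of which 7 were shared: Rab4a, Rab5b, Rab20, Rab27a, Rab30, Rab31 and Rab37. Tet2-/- MEP further had Rab11a as lower than the other Tet2-/- populations (contrast −1.47, SE 0.30, adjusted p = 0.00129), which WT MEP had not.

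CLP had the longest list, 20 of 55 members in WT (36.4%, against 28.6% of all genes) and 15 in Tet2-/- (27.3%, against 24.2%). The WT CLP libraries 2, 3, 4 and 5 also held mast cell, basophil and eosinophil markers, at 3207, 3669, 967 and 259 CPM (8 markers, 1 at 0), against at most 396 CPM in any other WT library, and neutrophil granule genes at 3046, 1132, 11.5 and 29.1 CPM (8 markers, 3 at 0). Their part in the CLP levels was not tested. Rab20 held 159, 115, 118 and 83.4 CPM in WT CLP and means of 2.45 to 21.3 CPM in the other WT populations (contrast 3.81, SE 0.19, adjusted p = 2.67e-11). Rab19 stood at 26.1, 44.2, 34.5 and 40.9 CPM in WT CLP and at 54.1, 35.1, 29.8 and 36.9 CPM in Tet2-/- CLP. Outside CLP, its WT mean was 9.62 CPM in ST-HSC and at most 0.949 CPM in LT-HSC, CMP, GMP and MEP. Rab30 reached 32.1 ± 16.4 CPM in WT CLP (contrast 6.76, SE 0.96, adjusted p = 1.73e-05). Rab3b, a Rab of neuronal and endocrine exocytosis, had no count in any of the 38 libraries outside CLP and stood at 27.7, 13.2, 10.4 and 8.35 CPM in WT CLP and at 0, 2.41, 2.1 and 22 CPM in Tet2-/- CLP.

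The CLP lists shared 9 members between genotypes, 45% of the WT list and 60% of the Tet2-/- list, 8 of them in the same direction. The variable libraries show in single members: Rab44 stood at 12.5, 207, 29.8 and 13 CPM in Tet2-/- CLP, and the library at 207 CPM is library 3, which had the highest sum of neutrophil granule genes in that group. Library 5, at 13 CPM of Rab44, had 4071 CPM of those genes against 12069 CPM in library 3. The part of such cells in the CLP values was not tested. ST-HSC had 7 called members in WT (12.7% of all genes) and 5 in Tet2-/- (12% of all genes), with Rab1b lower and Rab38 higher in both. The Tet2-/- call of Rab1b was lost without Tet2-/- ST-HSC library 3 or 4 (adjusted p 0.0583 and 0.0663). CMP had 4 in WT (4.37% of all genes) and 1 in Tet2-/- (1.85% of all genes), and none was shared. The WT CMP count was 1, with 0 higher, under RLE scaling (781 of 20006 genes called) and without the low-count filter (725 of 30612).

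Within subfamilies, paralogs took different shares of the RNA by population. Per exon length, Rab4a made up 90.3% ± 2.89 of Rab4 RNA in WT MEP, 45.8% ± 4.91 in CMP and 10.9% ± 6.11 in GMP (SD, n = 4 each), with Rab4b as the rest. In Tet2-/- MEP the Rab4a share was 72.3% ± 9.20. Rab27a made up 98.7% of Rab27 RNA in WT GMP but 50.1% in LT-HSC and 42.3% in MEP. Rab38 made up 81.3% of the RNA of Rab29, Rab32 and Rab38 together in LT-HSC, 43.4% in GMP and 20.9% in CLP, all in WT. Rab1a was 84.5% ± 5.42 of Rab1 RNA in WT LT-HSC and 57.1% in GMP, where Rab1b was high. Within Rab5, the Rab5a share in GMP was 18.9% in WT and 7.41% in Tet2-/-, and the Rab5b share 40.7% and 49.4%.

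**Figure D5:**
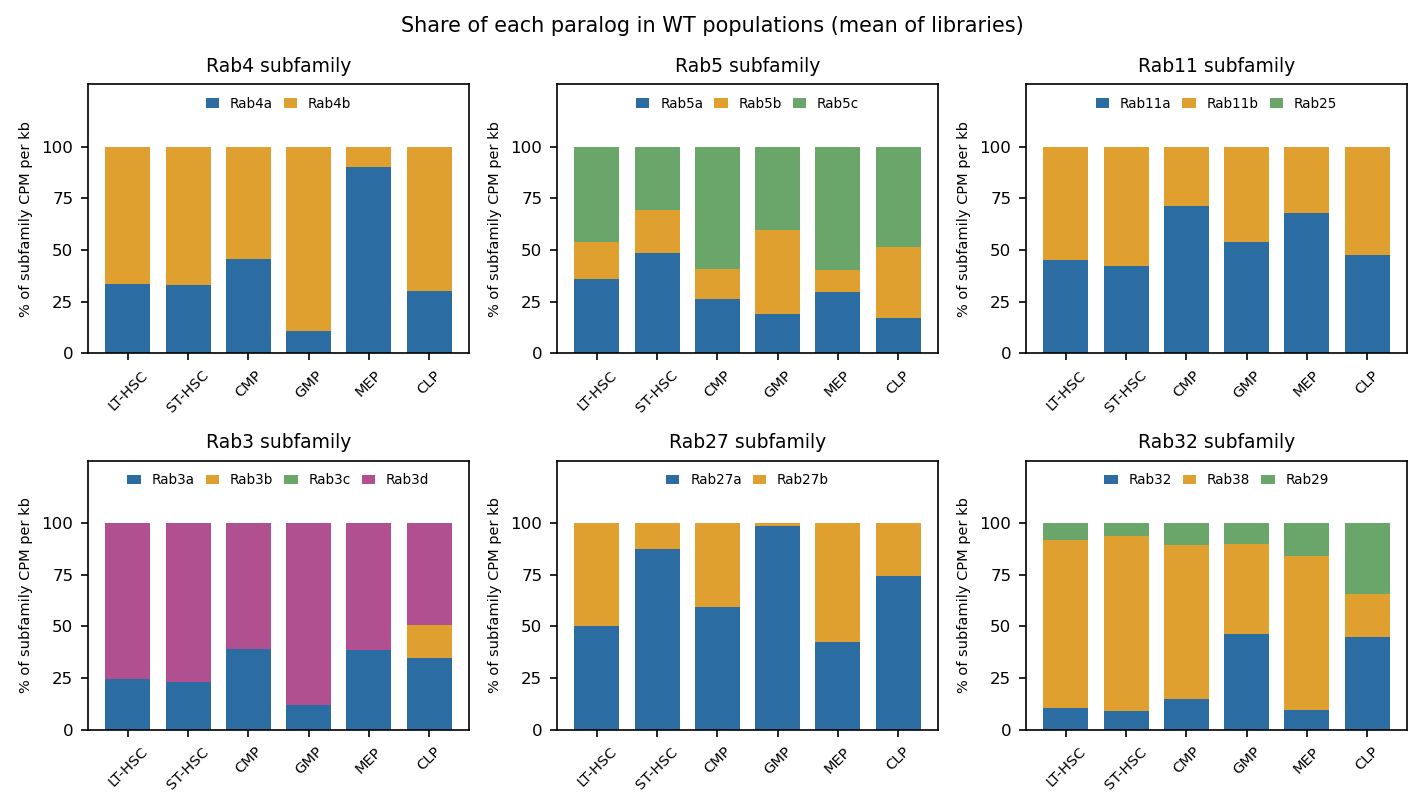
Share of each paralog in the summed CPM per kb of its subfamily in each WT population (stacked bars, mean over libraries, in percent), for 6 subfamilies. Rab4a fills 90.3% of the Rab4 bar in MEP and 10.9% in GMP, Rab27a nearly all of the Rab27 bar in GMP, and Rab3b shows in the Rab3 bar of CLP alone.

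Shares of the roles are given as a description. Late endosome and lysosome-related members made up 53.4% ± 1.04 of Rab RNA per length in WT LT-HSC, 34.1% ± 1.37 in MEP and 22.6% ± 1.73 in CLP. Without Rab38 these shares were 33.2%, 27.1% and 22.1%. Secretion and granule members were 10.4% ± 1.69 in WT GMP, 8.02% ± 0.755 in CLP and 2.09% ± 0.327 in MEP. With genotype, the late endosome share was 39.6% ± 0.972 in WT and 44.3% ± 1.73 in Tet2-/- CMP, 34.9% ± 1.41 and 39.0% ± 1.53 in GMP, and 34.1% ± 1.37 and 42.2% ± 2.95 in MEP (n = 4 each). The early endosome share in MEP was 22.4% ± 1.52 in WT and 13.2% ± 2.1 in Tet2-/-, and without Rab4a it was 10.2% ± 0.568 and 9.49% ± 0.456. These shares were not tested further, since they are built from the levels above.

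Genes that act on Rab proteins or resemble them were called by edgeR at a share at or below that of all genes. Over all these lists together, edgeR called 1 of 144 genes in CMP (0.694%, against 4.57% of all genes), 6 of 144 in GMP (4.17%, against 4.37%) and 2 of 136 in MEP (1.47%, against 4.36%), so the calls are no result about these lists. DESeq2 called 7, 9 and 5, where it called 4.77%, 3.93% and 3.98% of the genes it was given. The lists held 45 exchange factors, 37 GAPs, 56 effectors, 8 prenylation and chaperone genes, 3 kinases and phosphatases and 7 Rab-like genes. In GMP the DESeq2 share was thus above that of all genes, unlike the edgeR share. Among exchange factors, Trappc6b, a subunit of the TRAPP complexes, fell in CMP (log2 −1.84, SE 0.25, adjusted p = 0.0021, 1 of 43 tested), GMP (log2 −1.04, SE 0.16, adjusted p = 0.00219) and MEP (log2 −2.32, SE 0.21, adjusted p = 0.000213, 1 of 40). Rab3ip, the Rab8 exchange factor Rabin8, fell in GMP by 3.21 (SE 0.34, adjusted p = 0.00014), so that 2 of 45 GEF genes were called there. Of the GAP genes, Tbc1d10a fell by 2.96 (SE 0.36, adjusted p = 0.000336) and Tbc1d8 by 1.20 (SE 0.22, adjusted p = 0.00616) in GMP, 2 of 35 tested, and Grtp1 by 2.97 (SE 0.55, adjusted p = 0.012) in MEP, 1 of 34. Of 47 effectors tested in GMP, Rabep1, the Rab5 and Rab4 effector rabaptin-5, fell by 1.56 (SE 0.22, adjusted p = 0.00108) and Osbpl1a, a Rab7 effector, by 1.07 (SE 0.23, adjusted p = 0.0171). None of the 8 prenylation and chaperone genes, the Rab kinases and phosphatase or the Rab-like genes was called by edgeR or DESeq2 in any genotype comparison. Of the 8 prenylation and chaperone genes, 2 reached an unadjusted p under 0.05 in ST-HSC, 2 in GMP and 1 in MEP (6.13%, 17.3% and 16.4% of all genes). So did 2 of 3 kinase and phosphatase genes in LT-HSC (5.16% of all genes), 1 of 3 in ST-HSC and 1 of 6 Rab-like genes in GMP. In LT-HSC, ST-HSC and CLP edgeR called 0 of 148, 143 and 128 genes, with 7, 9 and 6 at an unadjusted p under 0.05 (5.16%, 6.13% and 3.65% of all genes) and 1, 0 and 4 called by DESeq2 (0.963%, 1.33% and 2.01% of all genes).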

How the data were processed

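RNA of 46 libraries was analysed (Smart-seq2, mouse bone marrow populations, 3 or 4 libraries per group). The authors deposited raw counts per gene, made after trimming and alignment to mm10. The submitters' processing notes list Trim Galore 0.6.7, HISAT2 7.5.0, DESeq2 and the builds mm10 and mm9, and the counting program and its annotation are not given in the sources used here. A separate table of 9 LT-HSC libraries was not used here. Library totals were 50458473 to 102148079 counts, and a member near the floor of 3 counts carries a large counting error.

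Counts were filtered by filterByExpr, scaled by TMM and fitted with edgeR 4.0.16 in R 4.3.3 (quasi-likelihood, prior count 2). Genotypes were compared within each population, populations within each genotype, and their interaction over all libraries, with Benjamini-Hochberg adjustment over all genes tested. Calls needed an adjusted p of at most 0.05 and, except for the interaction, a 2-fold change. CPM values were scaled over all 46 libraries, but counts of non-overlapping genes used CPM scaled within the population. The edgeR fit was tested on simulated counts with known 4-fold changes, and the other steps were not part of that simulation. It called 57.7% of them in the CMP and 30.4% in the LT-HSC genotype comparison, with 3 and 1 false calls. In the contrast of WT GMP it called 34.7%, with 68 right and 12 false calls. The members, role lists, regulator lists (exchange factors, GAPs, effectors, prenylation and chaperones, kinases, Rab-like genes) and marker lists were chosen with earlier results of these data known. Named members were those called by genotype, up to 4 per comparison without overlap and with a mean of at least 20 CPM, the 5 highest per length, and subfamily paralogs. Also named were the 15 with the largest range among WT populations, of the members called in the WT F-test with a WT population mean of at least 20 CPM. Members with no count in any library were named too. Rab7b, Rab10, Rab15, Rab26, Rab34, Rab36 and called genes of the regulator lists were chosen after their values were seen. Exon lengths, coordinates and overlaps came from GENCODE annotation of GRCm38, and promoter windows from RefSeq. Alternatives were DESeq2 1.42.0, RLE scaling, no low-count filter, no fold limit, a fit of all 46 libraries, a replicate block and leaving out each library. A GC correction and fits without CLP were added after seeing the data.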

Additional observations from a re-analysis of the deposited data

Results flagged for a closer look

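In the groups of 4 libraries examined, 31 in all, 3 values of a named member lay far from the other libraries of their group, and chance flags about 1 in 20 such groups. Rab11a stood at 108 CPM in Tet2-/- CMP library 2, whereas the other Tet2-/- CMP libraries held 40.4, 37.2 and 38.7 CPM. Rab24 stood at 6.08 CPM in Tet2-/- GMP library 3, against 4.12, 4.11 and 4.12 CPM in the others. Rab1b stood at 88.5 CPM in WT GMP library 4, against 117, 121 and 121 CPM in the others.

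The genotype effect on Rab11a differed between populations in the interaction test of edgeR (adjusted p = 0.0029), with log2 fold changes of −2.23 in MEP, −1.45 in CMP, −0.70 in GMP, −0.29 in LT-HSC, 0.13 in ST-HSC and 0.22 in CLP. Leaving out the 1 high Tet2-/- CMP library moved the CMP value to −1.96.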

How the results depend on the processing

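Of the 25 genotype differences followed (the called members, and up to 4 per population without overlap), none changed direction in the alternatives run. Of the 104 called contrasts of 1 population with the other 5, each in 1 genotype, 2 changed direction, Rab39b in WT ST-HSC without WT ST-HSC library 5 (log2 2.70 to −2.88) and Rab26 in WT CLP without WT CLP library 4 (4.76 to −1.28). The count of called members by genotype stayed within 1.5 times its value except as follows. In CMP (2 called) it was 5 with unadjusted p (1292 of 16047 genes) and 1 without the low-count filter (631 of 25911). It was also 1 in the fit of all 46 libraries (1.27% of all genes) and 1 with the GC correction (4.19%). In GMP (4) it was 0, and in MEP (4) 1, in the fit of all 46 libraries (0.979% and 1.89% of all genes). MEP reached 7 with DESeq2 (3.98% of all genes). In CLP (0) it was 1 with unadjusted p (389 of 13060 genes), 1 with DESeq2 (2.01% of all genes) and 5 in the fit of all 46 libraries (6.61%). Leaving out each library in turn gave 0 to 0 calls in LT-HSC, 0 to 0 in ST-HSC, 1 to 3 in CMP, 3 to 7 in GMP, 2 to 5 in MEP and 0 to 0 in CLP. CMP had 1 call on leaving out any of the WT libraries or Tet2-/- library 3, GMP reached 7 without WT library 5, and MEP had 2 without WT library 2 or 3 or Tet2-/- library 4.

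Across populations, WT LT-HSC (5 called) moved to 9 without the fold limit (3483 of 20006 genes) and 9 with DESeq2 (3173 of 30612). WT CMP (4) moved to 7 without the fold limit (1091 of 20006), 1 with RLE scaling (781 of 20006) and 1 without the filter (725 of 30612). WT MEP (8) moved to 13 with DESeq2 (4271 of 30612). In Tet2-/-, DESeq2 moved LT-HSC from 5 to 11, ST-HSC from 5 to 8, CMP from 1 to 2 and MEP from 12 to 20. Over all genes it called 3371, 3327, 1088 and 4448 of 31319 there, against 2363, 2336, 359 and 2848 of 19415 by edgeR. The interaction (1) called 2 with DESeq2 (1388 of 33994 genes) and 2 without CLP, a fit whose share over all genes is not given here. Leaving out single libraries gave 23 to 29 members in the WT F-test and 20 to 28 in the Tet2-/- one, and 1 to 3 in the interaction. In the contrasts of 1 population it gave for WT and Tet2-/- 3 to 7 and 4 to 8 in LT-HSC, 4 to 8 and 2 to 7 in ST-HSC, 1 to 6 and 0 to 2 in CMP, 10 to 13 and 8 to 13 in GMP, 7 to 11 and 8 to 16 in MEP, and 17 to 22 and 14 to 17 in CLP. WT LT-HSC had 3 without WT LT-HSC library 2 or 5, WT ST-HSC 4 without WT ST-HSC library 3, Tet2-/- LT-HSC 8 without Tet2-/- CLP library 3, and Tet2-/- ST-HSC 2 and 3 without Tet2-/- ST-HSC library 3 and 4. The CMP counts moved on leaving out most libraries, and the interaction reached 3 without WT CLP library 5. The cause of these moves was not tested.

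Between genotypes, libraries with the same replicate number did not meet the criterion for pairs, a correlation over 0.1 in every pair. Over the 22 WT and Tet2-/- pairs of one number the mean correlation of deviations from the group means was 0.026, against −0.009 for other pairs, and 19 of 46 libraries correlated best with their own number in the other genotype. Across populations of one genotype, 40 of 46 libraries correlated best with their own number (mean correlation 0.056 in WT and 0.078 in Tet2-/-, against −0.019 and −0.026 for other pairs), a hint from the data, not from the design, that one number marks one source. With the replicate block, 0, 0, 2, 3, 4 and 0 members were called by genotype in LT-HSC, ST-HSC, CMP, GMP, MEP and CLP. Over all genes the block called 2 of 16351, 2 of 16212, 527 of 16047, 658 of 16563, 526 of 14934 and 0 of 13060. Rab35 in GMP (log2 −1.50, adjusted p = 0.109) and Rab24 in MEP (log2 −1.66, adjusted p = 0.105) were no longer called, and Rab5a in MEP was (log2 −1.19, adjusted p = 0.0321). The block gave 22 and 21 members in the WT and Tet2-/- F-tests (7287 of 20006 and 6886 of 19415 genes) and 17 and 10 in the CLP contrasts (4672 and 3593 genes). It gave 2 in WT CMP (602 genes), 0 in Tet2-/- CMP (277 genes) and 1 in the interaction (463 of 22360 genes). The replicate block with the GC correction called 0 in CMP and 2 in MEP. Whether depth or the number of sorted cells limits the members near the floor of 3 counts was not tested. Why fewer genes were called in LT-HSC, ST-HSC and CLP was not tested.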
